A study of Capra hircus with 20 samples.

Results

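The genes of thyroid hormone signalling were followed from birth to 180 days of age in the hypothalamus of female Jining grey goats, an early-maturing Chinese breed. The set holds 9 genes, chosen by name while earlier results of these data were known. They are the deiodinases DIO2 and DIO3, the nuclear receptors THRA and THRB, and the transporters SLC16A10 and SLCO1C1. The others are the binding protein CRYM and the response genes KLF9 and HR. Each of the 9 was found under its NCBI gene ID, so that all members stand among the 21071 genes with a value. RNA was measured in 20 libraries, 1 per goat, with 5 healthy goats at each of the stages D1 (1 day old), M2 (60 days), M4 (120 days) and M6 (180 days), set apart by the labels through age alone. The goats shared a farm and their feeding, and the source is named only as hypothalamus, with no account of which nuclei a piece held. Values are FPKM (fragments per kilobase of transcript, scaled to the mapped fragments of a library), a level per length, so that levels of different genes in a library can be set side by side. The number of reads behind a single value cannot be read from FPKM, and library totals were not used here.

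Thyroid hormone reaches the brain mostly as the prohormone T4. Transporters carry it over the blood-brain barrier and into glia, DIO2 in astrocytes and tanycytes turns it into the active T3, and DIO3, mainly in neurons, inactivates both. Inside cells CRYM holds T3 in the cytosol, and THRA and THRB, bound to DNA as partners of the retinoid X receptors, switch genes such as KLF9 and HR. In the hypothalamus this pathway is known for the feedback on TRH neurons, and in seasonal breeders for the switch that DIO2 and DIO3 make between reproductive states. The study describes the estrus of Jining grey goats as not seasonal.

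None of the 9 genes passed the test between any of the stages. In the limma fit to log2(FPKM + 0.1) over all 20 libraries, a call needed an adjusted p (Benjamini-Hochberg over the 16771 genes tested) under 0.05 and a log2 difference of 1 or more in size, and 0 of 9 members were called in each of the 6 pairs of stages and in the mean of M2, M4 and M6 vs. D1. The background was near 0 as well. The share of all genes called was 0.0% in M2 vs. D1, 0.0537% for M4 against D1, 0.00596% for M6 against D1, 0.0% in each of the 3 pairs of later stages, and 0.0596% for the later stages vs. D1. At an unadjusted p under 0.05, 9 of the 54 comparisons of a member between 2 stages passed in limma. Against D1 they were 1 member at M2 (15.6% of all genes), 2 at M4 (8.71%) and 1 at M6 (7.41%). Against M2 they were 3 members at M4 (8.68%) and 2 at M6 (6.14%), and M6 against M4 had 0 (6.87%). In the same way 2 of 9 members passed for the later stages vs. D1, where 11.7% of all genes did. The F test over the 4 stages had an unadjusted p under 0.05 for KLF9, DIO2 and DIO3, 3 of 9 members beside 10.4% of all genes, and an adjusted p under 0.05 for 0 of 9, beside 0.00596%. DIO3 entered the test only through libraries of D1 and M2, so its p-values against M4 and in the F test support nothing. Without it, 7 of 48 comparisons of a member and 2 of 8 members in the F test had an unadjusted p under 0.05.

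The libraries differed in the level of markers of other brain regions, and these levels stand beside the results below that they move with. Summed FPKM of 6 striatal markers (among them PPP1R1B, DRD1, DRD2, ADORA2A and RGS9) was 719 in D1-4, 354 in M6-2 and 185 in M2-4, and at most 19.3 in the other 17 libraries. Library M4-1 had the highest summed cortical markers, 139 against at most 28.0 elsewhere, and M4-2 the highest summed thalamic markers, 199 against at most 64.2. These 5 libraries are called the region-marker libraries here. Summed neuronal markers were lowest in M6-3, M2-1 and M2-3, at 79.0, 222 and 528 against a median of 900 over all libraries. In M2-3 and M6-3 alone the gene with the highest FPKM was KLHDC1, at 23.9% and 9.83% of all FPKM. The highest share of a single gene in any other library was 11.7%, in M6-5. The part of KLHDC1 in the levels of other genes was not tested. The defining peptides of the hypothalamus were unevenly present. OXT was highest in M6-4 and M6-5, at 413 and 279 FPKM, and listed at 0 in several libraries of D1, M2 and M4. AVP reached 392 FPKM in M4-4, 201 in M6-4 and 176 in D1-1, and PMCH 375 in M6-5 and 303 in D1-1, whereas GHRH was above 0 in 1 of 20 libraries and KISS1 in 5. The summed hypothalamic list ran from 1.46 in M4-3 to 918 in M6-5. Pituitary markers summed to at most 3.77 in any library. In whole tissue, fewer cells of a type and less RNA per cell cannot be told apart.

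By mean level over the 20 libraries, KLF9 was highest at 47.3 ± 18.7 FPKM (SD, n = 20), then THRA at 19.2 ± 2.97, CRYM at 10.9 ± 19.6, SLCO1C1 at 8.02 ± 8.19, THRB at 7.33 ± 4.67, DIO2 at 6.12 ± 4.53, HR at 2.05 ± 0.857, SLC16A10 at 1.95 ± 0.782 and DIO3 at 0.103 ± 0.158. KLF9 stood above THRA and SLC16A10 above DIO3 by more than their SD, and the other neighbours in this order differed by less than the larger SD. CRYM and SLCO1C1 owed their place to few libraries, with medians of 2.64 and 5.04 FPKM. All 9 genes reached 0.1 FPKM in 5 or more libraries, the condition for testing, DIO3 only through libraries of D1 and M2.

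**Figure D1:**
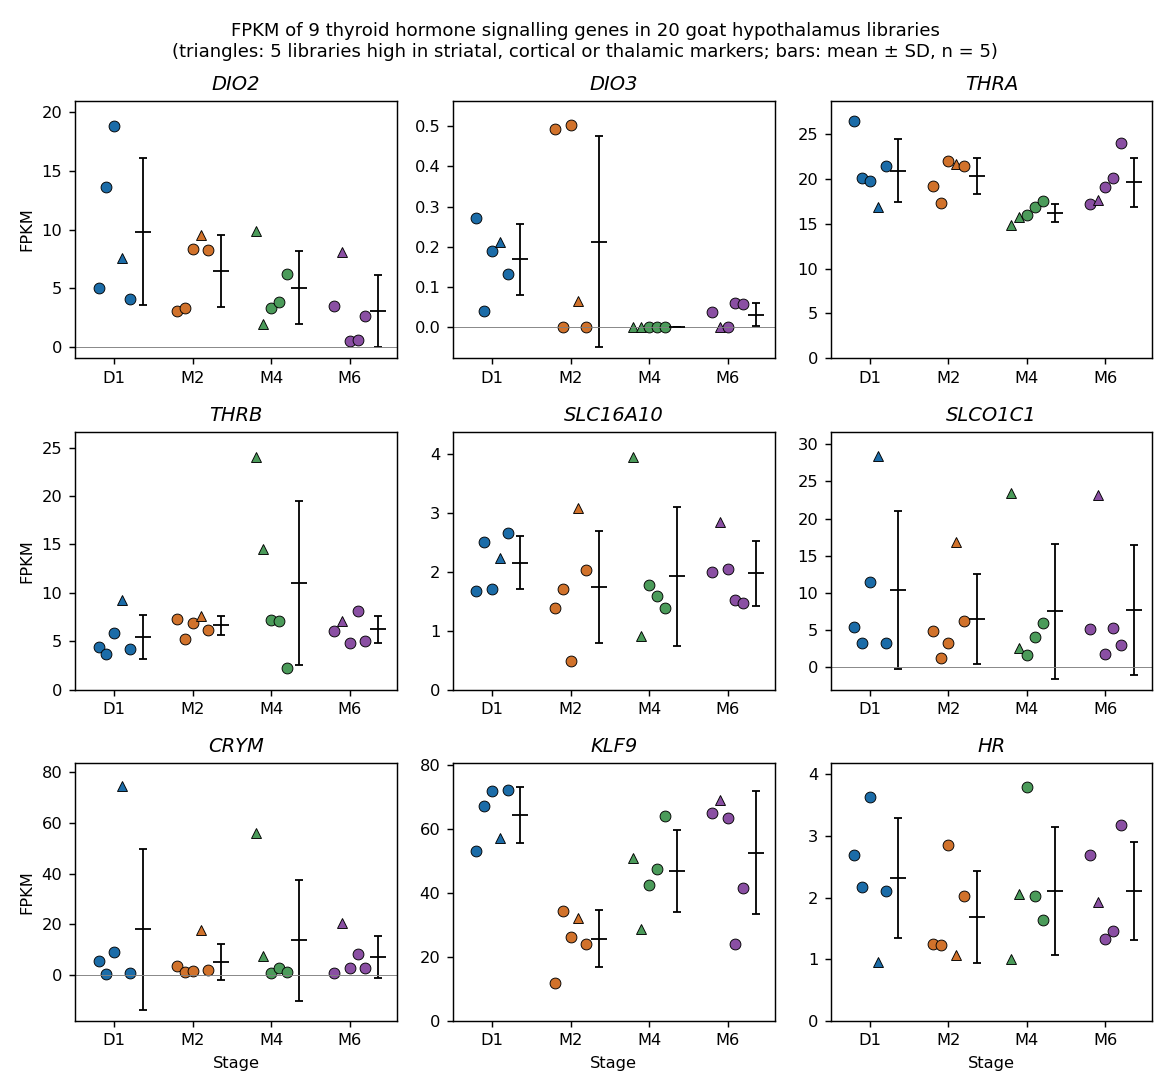
FPKM of the 9 genes (1 panel each, linear axes) by stage, with 1 point per library, triangles for the 5 region-marker libraries and bars for the mean ± SD of 5 libraries. KLF9 in M2 lies wholly below D1, DIO3 is listed at 0 throughout M4, and the highest points of CRYM and SLCO1C1 are triangles.

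Of the deiodinases, DIO2, the activating enzyme (NCBI gene 102179571, ARS1.2, chr10:11608368-11623676), had its highest stage mean in newborns and its lowest at M6. Its level was 5.08, 13.6, 18.8, 7.54 and 4.09 FPKM in D1-1 to D1-5, and 3.08, 3.34, 8.30, 9.49 and 8.30 in the M2 libraries. The M4 libraries had 9.89, 2.00, 3.38, 3.85 and 6.20 FPKM, and the M6 libraries 3.47, 8.08, 0.527, 0.622 and 2.66. The stages overlapped, since M6-2 lay above 3 goats of D1, while M6-3 and M6-4 were the lowest of all 20 libraries. The log2 fold change in M6 vs. D1 was −2.04 ± 0.62 (SE, n = 5 and 5; adjusted p = 0.446 in limma, unadjusted p = 0.00378), on the log2(FPKM + 0.1) scale. In the later stages vs. D1 it was −1.15 ± 0.51 (adjusted p = 0.385). M6-3 is also the library with the lowest neuronal markers, and without the 3 libraries low in those markers the M6 vs. D1 value was −1.61 (adjusted p = 0.590); without the 5 region-marker libraries it was −2.57 (adjusted p = 0.163). Over the 20 libraries, stage accounted for 37.6% of the variance of DIO2 on the log2 scale, a larger share than in all but 10.5% of the genes tested.

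DIO3, the inactivating enzyme (102180706, chr21:65752268-65754213), had the lowest level of the set. It was listed at 0 in 9 of 20 libraries, among them all 5 of M4, and it never exceeded 0.504 FPKM. The D1 libraries had 0.2703, 0.0386, 0.188, 0.213 and 0.133 FPKM, so that every newborn goat had a value above 0. The M2 libraries fell into 2 with 0.494 and 0.504 FPKM (M2-1 and M2-3), 1 with 0.0635 and 2 at 0. In M6 the values were 0.0365, 0, 0, 0.0587 and 0.0563. D1 and M4 did not overlap, as in 1.52% of all genes tested for a lower M4. Nothing is read from this, because DIO3 reached the level required for testing in D1 and M2 alone. No fold change is given against M4, where all values are 0. Genes above 0 numbered 17289 to 17593 in the D1 libraries, 16321 to 16877 in M2, 16147 to 16986 in M4 and 15754 to 17407 in M6. The part of this in the DIO3 values was not tested. The M2 libraries with the most DIO3 are those low in neuronal markers, and their part in its level was not tested.

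DIO2 stood above DIO3 in 20 of 20 libraries. The mean log2 ratio of DIO2 to DIO3, with 0.1 added to both, was 5.05 ± 1.22 in D1, 4.72 ± 1.61 in M2, 5.49 ± 0.856 in M4 and 4.01 ± 1.67 in M6 (SD, n = 5 each). No pair of stages differed by an exact permutation test of 5 against 5, in which the smallest p possible is 0.00794. With 0.1 added, the largest difference was −1.48 in M6 vs. M4 (two-sided p = 0.127 in the exact permutation test, 0.595 adjusted over the 12 ratio tests). The order depended on the amount added. With 0.01 the largest was 3.01 in M4 vs. D1 (exact permutation p = 0.0159, adjusted 0.190), and with 1 it was −1.36 in M6 vs. D1 (exact permutation p = 0.0635, adjusted 0.440). The DIO3 value under this ratio is at or near 0 in many libraries, and the direction of 4 of the 6 differences depended on the amount added or on the libraries left out.

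The transporters overlapped between all stages. SLC16A10, also called MCT10 or TAT1, carries T3 and aromatic amino acids (102181685, chr9:26490491-26607967). Its level was 1.68, 2.50, 1.70, 2.23 and 2.66 FPKM in D1 and 1.38, 1.71, 0.490, 3.09 and 2.03 in M2. It was 3.95, 0.908, 1.77, 1.59 and 1.38 FPKM in M4 and 2.00, 2.84, 2.04, 1.52 and 1.47 in M6. M4-1 was the highest library and M2-3 the lowest, and all stages overlapped. The later stages vs. D1 gave a log2 fold change of −0.30 ± 0.33 (SE; adjusted p = 0.748 in limma; 95% interval −0.98 to 0.38), and −0.18 without M2-3.

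SLCO1C1, or OATP1C1, is the T4 transporter of brain endothelium, astrocytes and tanycytes (102168240, chr5:87600370-87682102). Its level was 5.47, 3.29, 11.4, 28.4 and 3.28 FPKM in D1 and 4.91, 1.21, 3.26, 16.8 and 6.28 in M2. In M4 it was 23.5, 2.53, 1.66, 4.03 and 5.99 FPKM, and in M6 it was 5.16, 23.1, 1.77, 5.24 and 3.03. A single library stood high in each stage: D1-4, M2-4, M4-1 and M6-2. These 4 are region-marker libraries. The log2 fold change in the later stages vs. D1 was −0.57 ± 0.64 (adjusted p = 0.754; interval −1.89 to 0.76), −0.56 without the region-marker libraries, and −0.08 without D1-4 alone (adjusted p = 0.980). Summed endothelial markers ran from 49.8 in M4-1, the second-highest library for SLCO1C1, to 184 in M2-3, where SLCO1C1 was 3.26. With stage means removed, Pearson's r of SLCO1C1 with these markers was −0.29 over 20 libraries (adjusted permutation p = 0.419). Over the 15 libraries without the region-marker libraries it was 0.20 (adjusted permutation p = 0.847).

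CRYM, which binds T3 in the cytosol (100861024, chr25:18923736-18947679), varied more between goats of a stage than almost any other gene. Its level was 5.62, 0.486, 8.89, 74.5 and 0.498 FPKM in D1 and 3.52, 1.02, 1.52, 17.8 and 1.88 in M2. It was 55.9, 7.50, 0.868, 2.63 and 0.925 FPKM in M4 and 0.863, 20.6, 2.65, 8.39 and 2.58 in M6. The highest library exceeded the lowest 153-fold, and both were newborns. The SD within stages was 2.23 on the log2 scale, and 0.453% of the genes tested had a larger one, against a median of 0.57 over all genes. Stage accounted for 1.09% of its variance, and the later stages vs. D1 gave −0.19 ± 1.03 (SE; adjusted p = 0.956 in limma; interval −2.34 to 1.96). Without D1-4 this value was 0.85 (adjusted p = 0.813) and without D1-3 it was 0.08, so that its direction rests on single libraries. The 5 libraries with the most CRYM were D1-4, M4-1, M6-2, M2-4 and D1-3, in that order, and these were also the 5 with the most SLCO1C1, in the same order.

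**Figure D2:**
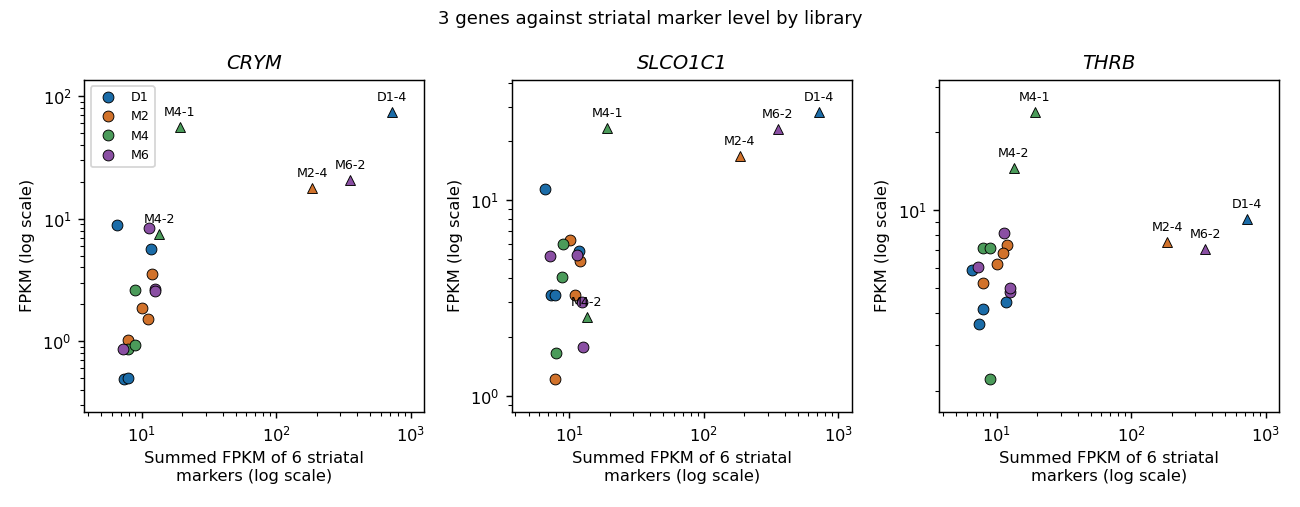
FPKM of CRYM, SLCO1C1 and THRB against the summed FPKM of 6 striatal markers, both on log axes, with 1 point per library coloured by stage and the 5 region-marker libraries as named triangles. The 3 libraries with a striatal sum of 185 or more, together with M4-1, have the highest CRYM and SLCO1C1, while THRB peaks in M4-1 and M4-2.

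The receptors differed in how even they were. THRA, the receptor that prevails in brain (102186338, chr19:40013861-40037482), had 26.5, 20.04, 19.8, 16.9 and 21.4 FPKM in D1 and 19.2, 17.3, 22.0, 21.7 and 21.4 in M2. The M4 libraries had 14.9, 15.7, 15.9, 16.8 and 17.5 FPKM, and the M6 libraries 17.1, 17.7, 19.1, 20.03 and 24.0. The highest of the 20 libraries was 1.78 times the lowest. The SD within stages was 0.17 on the log2 scale, and 99.8% of the genes tested had a larger one. The M4 libraries formed the lowest stage, with a mean of 16.2 ± 1.02 FPKM (SD, n = 5) against 20.9 ± 3.51 in D1. The log2 fold change was −0.36 ± 0.15 in M4 vs. D1 (SE; adjusted p = 0.505 in limma) and −0.33 ± 0.15 in M4 vs. M2 (adjusted p = 0.562), both under an unadjusted p of 0.05 and below the fold required for a call.

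THRB, the receptor of the hypothalamic feedback (102172237, chr27:3763978-4201001), was the member with a positive fitted difference in each comparison with D1. Its level was 4.43, 3.64, 5.87, 9.26 and 4.15 FPKM in D1 and 7.32, 5.24, 6.85, 7.56 and 6.17 in M2. It was 24.0, 14.5, 7.17, 7.12 and 2.21 FPKM in M4 and 6.03, 7.07, 4.83, 8.16 and 5.00 in M6. M4 held both the 2 highest libraries, M4-1 and M4-2, and the lowest, M4-5. The later stages vs. D1 gave 0.42 ± 0.35 (adjusted p = 0.656; interval −0.30 to 1.14). The M4 vs. D1 value of 0.68 was 0.12 without the region-marker libraries, which include M4-1 and M4-2.

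THRA stood above THRB in 19 of 20 libraries, the exception being M4-1 with a ratio of 0.618. The ratio reached 7.90 in M4-5. The mean log2 ratio was 1.98 ± 0.70 in D1, 1.61 ± 0.16 in M2, 0.94 ± 1.36 in M4 and 1.66 ± 0.42 in M6 (SD, n = 5 each). None of the 6 differences passed (smallest two-sided p = 0.167 in M4 vs. D1 by the exact permutation test, 0.595 adjusted). Without M4-5, in which THRB was lowest, the ratio differed by −1.16 in M4 vs. M2 and by 1.21 in M6 vs. M4 (exact permutation test, adjusted p = 0.0476 each), but without the region-marker libraries these differences were 0.13 and −0.02.

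Of the response genes, KLF9, a transcription factor induced directly by T3 and by glucocorticoids (102181681, chr8:46365133-46393471), had the clearest relation to stage. The D1 libraries had 53.2, 67.1, 71.7, 57.0 and 72.3 FPKM, and the M2 libraries 11.8, 34.4, 26.2, 32.2 and 24.0. The M4 libraries had 51.0, 28.7, 42.6, 47.5 and 63.9 FPKM, and the M6 libraries 65.1, 69.0, 63.4, 23.9 and 41.6. Every M2 goat lay below every D1 goat, a lack of overlap that 2.32% of all genes tested showed in this direction, while M4 and M6 overlapped with both. The mean was 64.3 ± 8.69 FPKM in D1, 25.7 ± 8.86 in M2, 46.7 ± 12.8 in M4 and 52.6 ± 19.3 in M6 (SD, n = 5 each). The M2 vs. D1 log2 fold change was −1.40 ± 0.30 (SE; adjusted p = 0.104 in limma), the smallest adjusted p of any member, and its unadjusted p was 0.000157. In M4 vs. M2 and M6 vs. M2 the values were 0.90 (adjusted p = 0.499) and 1.02 (adjusted p = 0.746). Stage accounted for 56.5% of the variance of KLF9 on the log2 scale, and 0.960% of the genes tested had a larger share.

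The M2 vs. D1 difference of KLF9 passed with libraries weighted by quality (−1.31, adjusted p = 0.0111 in limma) and in no other setting tried, and it kept its sign in all. The same weights raised the share of all genes called in M2 vs. D1 from 0.0% to 0.882% (148 genes), and over the 4 stages, where KLF9 was called too, to 1.01% (170 genes). Some other measures were also lower in M2 than in D1. The fitted difference was negative for 7 of 7 oligodendrocyte markers (median −0.88), 5 of 6 neuronal markers (−0.60) and 6 of 6 ubiquitous genes (−0.56). The median over all genes was −0.07, and 0 of these markers were called. In M4 vs. M2, where KLF9 was higher, the median was −0.47 for oligodendrocyte markers, 0.53 for neuronal markers and 0.54 for ubiquitous genes. Summed oligodendrocyte markers were 1007 to 15602 FPKM in D1 and 2574 to 7658 in M2. D1-4, with the lowest sum in D1, had 57.0 FPKM of KLF9, and M2-1, with the lowest KLF9 of all, also had the lowest sum of ubiquitous genes (735) and few neuronal markers. Without M2-1 the difference was −1.14 (adjusted p = 0.374), and without the 3 libraries low in neuronal markers −1.09 (adjusted p = 0.866). The part of these measures in the difference was not tested.

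HR, a nuclear corepressor that binds the thyroid hormone receptors (102171151, chr8:69099179-69115184), had 2.69, 2.18, 3.64, 0.959 and 2.11 FPKM in D1 and 1.25, 1.22, 2.85, 1.07 and 2.02 in M2. It had 1.01, 2.07, 3.80, 2.03 and 1.63 FPKM in M4 and 2.69, 1.93, 1.33, 1.46 and 3.17 in M6. The stages overlapped throughout, and D1-4, M4-1 and M2-4 were the 3 lowest libraries. These 3 are region-marker libraries in which CRYM and SLCO1C1 were among the highest. The later stages vs. D1 gave −0.21 ± 0.32 (SE; adjusted p = 0.822 in limma; interval −0.87 to 0.45). Without single libraries this value ran from −0.48 (without D1-4) to −0.03 (without D1-3), and it was −0.13 without D1-1 and −0.14 without M4-1.

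**Figure D3:**
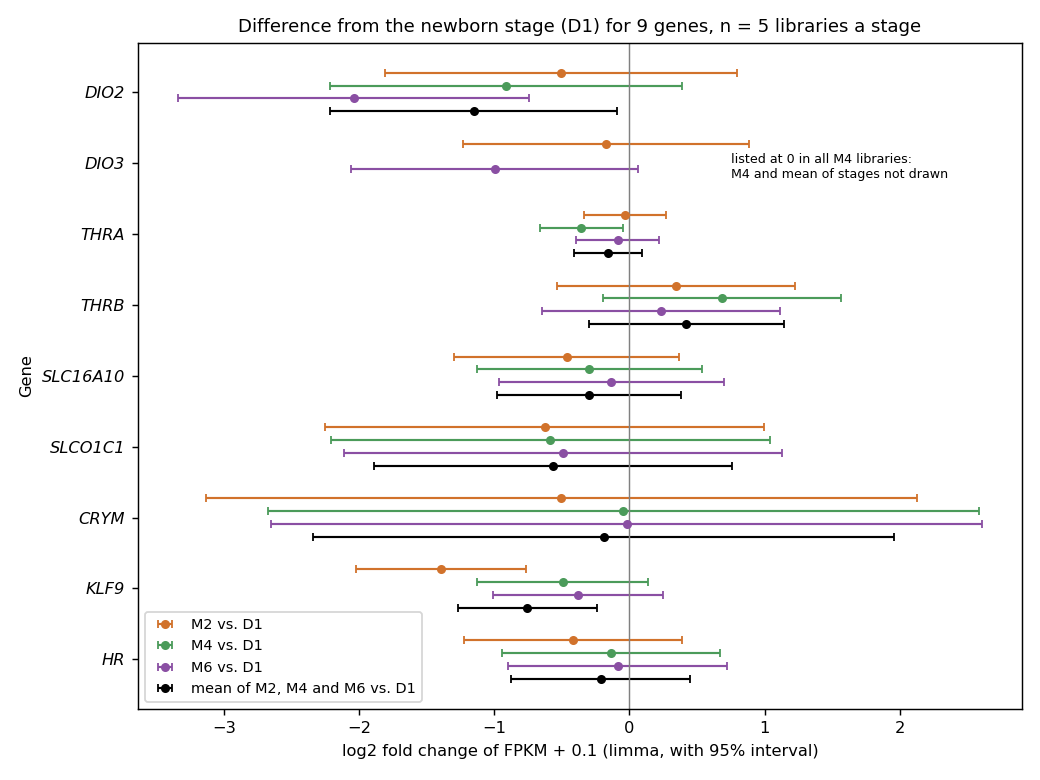
Log2 fold change of FPKM + 0.1 against D1 for the 9 genes (limma, points with 95% intervals, n = 5 libraries a stage), for M2, M4, M6 and the mean of the 3, leaving out DIO3 where M4, listed at 0, enters. The comparisons share the D1 libraries; the intervals of KLF9 in M2 (−2.03 to −0.77) and the mean of the 3 (−1.27 to −0.24), DIO2 in M6 (−3.34 to −0.74) and the mean of the 3 (−2.22 to −0.09), and THRA in M4 (−0.66 to −0.05) lie below 0, before adjustment over all genes.

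Among the 9 genes, 8 had a negative fitted difference in each of M2, M4 and M6 vs. D1, and THRB a positive one. DIO3 is among the 8, but it reached the level required for testing in D1 and M2 alone. Nothing is read from its sign in M4 and M6. The median of the 9, DIO3 included, was −0.46, −0.36 and −0.13, beside −0.07, −0.07 and −0.05 over all genes. These comparisons share the D1 libraries, and for CRYM (−0.04 and −0.02 in M4 and M6), THRA (−0.03 in M2) and HR (−0.09 in M6) the value was far inside its SE. Under median-ratio scaling the sign turned for CRYM in M4 (0.01) and M6 (0.00) and for THRA in M2 (0.04), and with a pseudocount of 1 it turned for DIO3 in M2 (0.03).

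Across goats of the same stage, 2 of the 36 pairs of members were correlated by Pearson's r past adjustment. After the stage means were removed, SLCO1C1 and CRYM had r = 0.80 over 20 libraries (adjusted p = 0.00432 from 100000 permutations within stages) and Spearman's rho = 0.72 (adjusted permutation p = 0.0190). THRB and CRYM had r = 0.74 (adjusted permutation p = 0.00432) and rho = 0.82 (adjusted permutation p = 0.00702). Without the 2 libraries farthest from the median of the first gene, r was 0.67 and 0.80. Neither pair passed without the region-marker libraries. Over the other 15, r was 0.52 and 0.45 (adjusted permutation p = 0.2999 each, rho = 0.56 and 0.50), and 0 of 36 pairs passed. Both kept their sign, and fewer libraries alone lower the power of the test. By rho alone, DIO3 and SLC16A10 (rho = −0.73, adjusted permutation p = 0.00702; r = −0.57, adjusted 0.150) and THRB and SLCO1C1 (rho = 0.66, adjusted permutation p = 0.0472; r = 0.47, adjusted 0.2004) also passed. DIO3 is at 0 in 9 of these libraries, and its r fell to −0.21 without the 2 farthest.

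Against the summed markers of 7 tissues and cell types, 10 of 63 relations passed by Pearson's r over 20 libraries, all of them of THRB, SLCO1C1 or CRYM. Because 3 libraries lie far above the rest in the striatal sum, M4-1 in the cortical sum and M4-2 in the thalamic sum, no pooled r is given for those sums. With astrocyte markers, r over 20 libraries was −0.80 for THRB (adjusted permutation p = 0.00724; rho = −0.86, adjusted 0.0107), −0.82 for CRYM (adjusted permutation p = 0.00210; rho = −0.77, adjusted 0.0118) and −0.68 for SLCO1C1 (adjusted permutation p = 0.0193; rho = −0.64, adjusted 0.0502). With oligodendrocyte markers it was −0.78 for THRB (adjusted permutation p = 0.000630; rho = −0.80, adjusted 0.0118) and −0.77 for CRYM (adjusted permutation p = 0.00724; rho = −0.70, adjusted 0.0135). Without the 2 libraries farthest from the median marker level, these r were −0.75, −0.72, −0.54, −0.73 and −0.76. Over the 15 libraries without the region-marker libraries these 5 were −0.48, −0.43, −0.29, −0.40 and −0.49, and 0 of them passed. Instead KLF9 and oligodendrocyte markers had r = 0.85 (adjusted permutation p = 0.0183; rho = 0.83, adjusted 0.0195; 0.77 without the 2 farthest libraries), and HR and thalamic markers r = 0.73 (adjusted permutation p = 0.0183; rho = 0.79, adjusted 0.0195; 0.75 without the 2 farthest). Without the 3 libraries low in neuronal markers as well, these r were 0.85 and 0.73 over 12 libraries (adjusted permutation p = 0.0893 each), and 1 relation passed, of THRA with striatal markers (r = 0.95, adjusted permutation p = 0.0391; rho = 0.97; 0.90 without the 2 farthest). That relation did not pass over the 15 libraries (r = 0.80, adjusted permutation p = 0.127). Over all 20 libraries its rho was −0.03 (adjusted permutation p = 0.986). In the 12 libraries the striatal sum was only 6.59 to 12.6 FPKM. Over all 20 libraries the KLF9 value was 0.53 (adjusted permutation p = 0.0708; rho = 0.44, adjusted 0.168). Both sets of relations were computed after the data were seen.

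**Figure D4:**
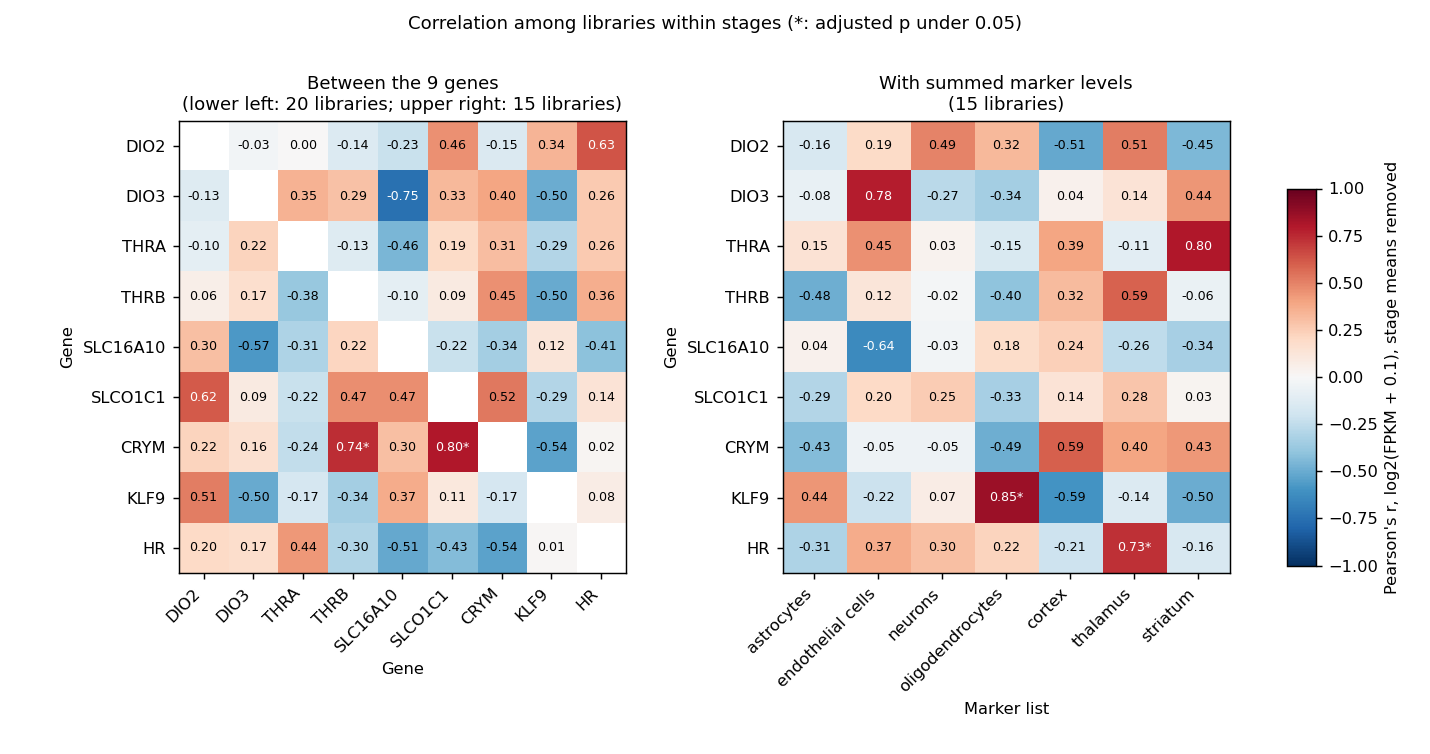
Pearson's r of log2(FPKM + 0.1) after removal of stage means, between the 9 genes (left, 20 libraries in the lower left and 15 without the region-marker libraries in the upper right) and with summed marker levels (right, 15 libraries). Asterisks mark an adjusted permutation p under 0.05: THRB with CRYM and SLCO1C1 with CRYM over 20 libraries, and KLF9 with oligodendrocytes and HR with thalamus over 15.

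The genes whose log2 levels ran most alike with each member over the 20 libraries are given by Pearson's r as a description. CRYM ran closest to ICAM5 (0.91), GABRA5 (0.90) and KCNJ4 (0.90), genes of forebrain neurons, and SLCO1C1 to KIAA1211L (0.89), NETO1 (0.87) and PDE2A (0.87). For THRB they were WWC1 (0.85), TRAF5 (0.83) and RASGRF2 (0.83). KLF9 ran closest to RAB10 (0.88), STT3B (0.87) and LANCL1 (0.87), and these values changed little without the region-marker libraries (0.90, 0.86 and 0.88), unlike those of SLCO1C1 (0.65, 0.55 and 0.56). DIO2 ran closest to ATP2B2 (0.78), CKAP2 (0.77) and SCN4B (0.74), and SLC16A10 to ING3 (0.83), BPGM (0.83) and RRN3 (0.82). THRA ran closest to DOK1 (0.81), TSHR (0.80) and SLC11A1 (0.78), of which SLC11A1 had a mean of 0.0670 FPKM. HR ran closest to EHD1 (0.84), MAP7D1 (0.84) and LGI3 (0.84), and DIO3 to LOC102191624 (0.86), SLCO4C1 (0.83) and ZNF282 (0.80), where the shared values at or near 0 enter r.

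Of 30 other genes of the pathway, 29 were in the data and 28 were tested. In any comparison 0 were called, beside 0.0596% of all genes in the later stages vs. D1. In the later stages vs. D1, 20 of 28 had a negative fitted difference (median −0.19, beside −0.07 over all genes). An unadjusted p under 0.05 in limma was found for 6 of 28, beside 11.7% of all genes. The smallest unadjusted p belonged to TSHR, the receptor of thyrotropin (log2 fold change −1.29 ± 0.45, adjusted p = 0.280 in limma), whose mean was 0.497 FPKM in D1 and 0.0301 in M4. With quality weights TSHR was called (−1.47, adjusted p = 0.0299), in a fit that called 1.33% of all genes. Its level is near 0 in M4, and over the settings tried its fold change ran from −2.51 to −0.35. The next smallest were those of NCOA2, a receptor coactivator (0.56 ± 0.24, adjusted p = 0.380), and SLC3A2, the heavy chain of the amino acid transporters that also move thyroid hormone (−0.37 ± 0.16, adjusted p = 0.387). DIO1 averaged 0.10 FPKM.

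Of 14 further genes known to respond to thyroid hormone in brain or other tissues, 13 were in the data and 12 were tested. Again 0 were called, beside 0.0596% of all genes in the later stages vs. D1. All 12 had a negative fitted difference in the later stages vs. D1 (median −0.42, beside −0.07 over all genes). So had 6 of 6 ubiquitous genes (median −0.44). Beside 11.7% of all genes, 1 of the 12 had an unadjusted p under 0.05 in limma. That was ME1, the cytosolic malic enzyme (−0.48 ± 0.17, adjusted p = 0.287 in limma), with 33.8 ± 8.21 FPKM in D1 and 18.9 ± 4.96 in M2 (SD, n = 5 each). ATP2A2, a calcium pump, had −0.31 ± 0.22 (adjusted p = 0.588). MBP also stands on the oligodendrocyte list, so that the response list is not separate from it.

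No marker list had a gene called in the later stages vs. D1 either, where 0.0596% of all genes were. The tanycyte list, the cells known for DIO2 in the hypothalamus, had VIM at −0.97 ± 0.27 (adjusted p = 0.174 in limma), NES at −0.77 (adjusted p = 0.424) and LHX2 at −0.99 (adjusted p = 0.664), while its defining genes RAX and GPR50 had means of 0.02 and 0.00 FPKM. Of the 4 tanycyte genes tested, 3 had a negative fitted difference and COL23A1 a positive one (median −0.87). The median was −0.99 for 7 oligodendrocyte markers (CNP −1.14, UGT8 −1.21, MOBP −1.09), −0.56 for 6 neuronal markers (STMN2 −0.94, NEFL −0.64, SYP −0.52) and −0.44 for 6 ubiquitous genes (YWHAZ −0.69, PPIA −0.46, GAPDH −0.42). It was 0.02 for 7 astrocyte markers (AQP4 −0.46, ALDH1L1 0.43, SLC1A2 −0.26) and −0.09 for 8 endothelial markers (CLDN5 −0.49, CDH5 −0.29, PECAM1 −0.17). Region lists had medians of −0.49 for striatum (ADORA2A −1.11, DRD1 −0.62) and 0.22 for cortex (NEUROD6 0.41). The thalamus list had −0.18 (SHOX2 −0.43, TCF7L2 −0.24, LHX9 −0.18) and the hypothalamus list −0.05 (POMC −0.61, FEZF1 0.51). AGRP, also on the hypothalamus list, averaged 4.42 ± 9.66 FPKM (SD) in D1 and 0 in M4. Its SD in D1 exceeded its mean. Without single libraries its log2 fold change in the later stages vs. D1 ran from −2.35 to −0.41. No loss of AGRP with stage is read from these means. For the choroid plexus the median was −0.23 (TTR 1.68, AQP1 −0.41, KCNJ13 −0.36) and for the pituitary, with 2 genes tested, −0.36 (LHB −0.45, CGA −0.28). The smallest adjusted p among these lists was 0.174, for VIM, which was called with quality weights (−1.01, adjusted p = 0.0130 in limma).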

How the data were processed

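RNA of the hypothalamus of 20 goats was sequenced by the authors as strand-specific libraries. Per the labels and the study's methods, reads were trimmed with fastp, aligned with HISAT2 2.0.5 to the goat genome ARS1.2 and assembled with StringTie 1.3.3b, and the deposited values are FPKM per gene. Low FPKM values did not sit on steps of whole reads (1.56% of 1471 low genes in the commonest bin), so reads were not recovered and FPKM gives no depth per sample. Library totals given by the study were not used here, and the precision is that of the 5 goats a stage.

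The members and lists were chosen with earlier results of these data known. Members were matched by NCBI gene ID, with positions from the RefSeq gene table of the same build, in which 20610 of 21071 genes have an entry. With limma 3.58.1 in R 4.3.3, log2(FPKM + 0.1) of the 16771 genes that reached 0.1 FPKM in 5 or more of the 20 libraries was fitted with 1 mean per stage and a variance trend, and p-values were adjusted over all genes in each comparison (Benjamini-Hochberg, two-sided). Limma stood in for the count test of the study because no counts were used here. The fit was tested on simulated data. Ratios were compared by exact permutation tests, and correlations, after removal of stage means, by 100000 permutations within stages (Python 3.11.15, scipy 1.17.1). Marker relations and the 3 sets of libraries left out were added after the data were seen. In the region-marker set, the summed striatal or thalamic level was over 5 times the median or the cortical sum was the highest. From each list the text names every gene called in a comparison with D1 and otherwise the 3 genes with the smallest unadjusted p in the later stages vs. D1. DIO1 and the region markers given with the libraries were named after their values were seen. Alternatives were another pseudocount, filter, scaling, weighting or block, and leaving out each library in turn. SULT1A1, NRGN, TUBB3 and PRL were not analysed here, and some genes that this rule names are not reported here.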

Additional observations from a re-analysis of the deposited data

Results flagged for a closer look

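Dixon's criterion was applied to linear FPKM in 35 groups of 5 libraries (9 genes at 4 stages, without DIO3 at M4, where all are at 0). By it, 6 values, from 4 libraries, lay far from the other 4 of their group. Chance meets it in about 1 in 20 groups where values are normally distributed. Skewed values can meet it more often, and the log2 scale was not tried, so the 6 are not set against that rate. The groups share libraries, M4-1 giving 3 of the 6 values, so that they are not independent of each other. CRYM was 74.5 FPKM in D1-4 beside at most 8.89 in the other D1 libraries, 17.8 in M2-4 beside at most 3.52, and 55.9 in M4-1 beside at most 7.50. SLCO1C1 was 23.5 FPKM in M4-1 beside at most 5.99, and 23.1 in M6-2 beside at most 5.24. SLC16A10 was 3.95 FPKM in M4-1 beside at most 1.77. All 6 fall in the libraries with high striatal or cortical markers, at a striatal sum of 719 in D1-4, 354 in M6-2 and 185 in M2-4 and a cortical sum of 139 in M4-1. The part of those markers in these values was not tested.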

How the results depend on the processing

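Of the alternative values computed, 2424 kept their direction and their side of the threshold or, for counts, stayed equal or within 1.5 times. Another 40 turned direction, 22 lost and 7 gained significance, and 6 counts moved further. In the main fit 0 members were called and no ratio passed, so most values had no call to lose. With libraries weighted by quality, 1 member was called in M2 vs. D1 and 1 over the 4 stages, KLF9 in both, against 0 otherwise; these weights raised the genes called overall from 0 to 148 and from 1 to 170. TSHR and VIM in the later stages vs. D1 also passed with them (223 genes called against 10). The other gains were the THRA to THRB ratio in M4 vs. M2 and M6 vs. M4 without M4-5, and the r of DIO3 and SLC16A10 without M2-4 (−0.56, adjusted permutation p = 0.0245) and of THRB and SLCO1C1 without M4-5 (0.75, adjusted permutation p = 0.00600). Leaving out each library in turn called 0 members in every comparison. The number of pairs of members passing by r was 2, 2 to 3 without 1 library, and 0 both without the 5 region-marker libraries and without all 8 doubted ones. Marker relations passing by r numbered 2 without the 5, 14 without the 3 low in neuronal markers and 1 without the 8, against 10.

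The ratio of DIO2 to DIO3 turned in M2 vs. D1 (0.59 with a pseudocount of 0.01, 0.74 without the 3 libraries low in neuronal markers, 0.59 without the 8; −0.75 to 0.24 without single libraries), in M4 vs. D1 (−0.57 with a pseudocount of 1), in M6 vs. D1 (0.27 with 0.01) and in M4 vs. M2 (−0.086 with 1, −0.30 without the 3, −0.28 without the 8). That of THRA to THRB turned in M4 vs. M2 (0.13 without the 5, 0.023 without the 8; −1.16 to −0.26 without single libraries), in M6 vs. M2 (−0.082 without the 3, −0.070 without the 8; −0.10 to 0.14) and in M6 vs. M4 (−0.020 without the 5, −0.092 without the 8; 0.31 to 1.21). The cause was not tested.

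Without single libraries, values of the later stages vs. D1 turned for CRYM (−0.90 to 0.85), PECAM1 (−0.33 to 0.074), AQP1 (−0.69 to 0.23), KCNJ13 (−0.82 to 0.49), NEUROD6 (−0.087 to 0.57), SHOX2 (−0.99 to 0.029), TCF7L2 (−0.67 to 0.089), LHX9 (−0.62 to 0.30), ADORA2A (−1.60 to 0.25) and DRD1 (−1.33 to 0.76). SLC1A2 (0.0033) and DRD1 (0.21) turned with quality weights, CGA (0.040) and LHX9 (0.065) with a pseudocount of 1, NEUROD6 (−0.38) with 0.01, and LHX9 (0.10) without the 3. The r of THRB and SLCO1C1 was −0.026 without the 8, and that of THRB and striatal markers −0.064 without the 5 and −0.098 without the 8. DIO3 could not be fitted at a mean of at least 1 FPKM or without the 3 or the 8.

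Replicate numbers only name a goat: deviations of same-numbered libraries correlated by −0.25 to 0.43 (median −0.01, 7 of 30 pairs over 0.1), and 3 of 20 libraries correlated best with one of their own number. With the number as a replicate block, KLF9 in M2 vs. D1 was −1.40 (adjusted p = 0.166 in limma) and 0 members were called. No reads were recovered, so values near 0, such as those of DIO3, carry no counting interval.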
